A study of Mus musculus with 12 samples.

Results

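The comparison described here asked what 11 mM glucose still did to the islet transcriptome in the presence of FK506, an inhibitor of the phosphatase calcineurin. Wild-type islets kept in 11 mM glucose with FK506 for 4 h (11G+FK) were set against wild-type islets at low glucose (2G). Members of the comparison were chosen by the group labels and paired by mouse number, which gave 4 of the 12 RNA libraries of the series, 2 mice in each group. The mice were wild type on the C57BL/6 background and had free access to food; age and sex were not used here. The islets were freed from the pancreas with collagenase, and the labels name β, α and δ cells as their source. The 11G libraries of the same 2 mice (11 mM glucose for 4 h without FK506) are given side by side, and the comparison of 11G+FK with 11G is the test of whether a gene differed with FK506. Libraries of the same mice in 11 mM glucose with diazoxide for 4 h (11G+D) entered the shared fit only. Statements about groups below leave them out. In the labels 2G stands for islets with no treatment, at low glucose, with no stated mM value or duration, so glucose and incubation cannot be told apart in a change from 2G. No islets received FK506 at low glucose, so an effect of FK506 that does not need glucose cannot be told apart from what glucose leaves in its presence.

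Calcineurin is a phosphatase switched on by calcium and calmodulin. In β cells glucose metabolism closes potassium channels, the membrane depolarizes and calcium enters; calcineurin then removes phosphate from NFAT transcription factors and from CREB-regulated coactivators, which move into the nucleus. FK506 binds a small cytosolic protein, and that complex blocks calcineurin, leaving the calcium signal and glucose metabolism as other routes by which glucose can reach genes.

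The 4 libraries held 16375631 to 22892255 counts, within the 15196061 to 22892255 of the series. Defining markers of β cells (8 genes), α cells (6), δ cells (3) and PP cells (2) were above 0 in each of the 4 libraries. As an indirect check on the inhibitor, Rcan1, a calcineurin regulator that NFAT induces in many cell types, stood at 44.6 and 58.9 CPM (counts scaled to the size of the library) at 2G in mice 1 and 2, at 61.5 and 54.6 at 11G and at 31.8 and 40.1 with FK506. Its 11G+FK values lay below those of the other groups, but neither the difference from 2G (log2 change -0.52 ± 0.17, adjusted p = 0.130) nor that from 11G (-0.71 ± 0.17, adjusted p = 0.171) passed the threshold. Calcineurin activity itself was not measured. Here and below the value after ± a log2 change is its standard error in edgeR's quasi-likelihood fit with the mouse as a block, an adjusted p is Benjamini-Hochberg over all 16087 genes tested with a threshold of 0.05, and values per library are CPM scaled with TMM factors, mouse 1 before mouse 2.

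With FK506 present, 332 of 16087 genes differed from 2G (2.06%), 237 of them higher (1.47%) and 95 lower (0.591%). At least 2-fold changes made up 168 (1.04%) of the higher and 53 (0.329%) of the lower genes. The transcription factor Npas4 had the largest increase of the 332 genes, and 8430408G22Rik had the lowest adjusted p. Given side by side, 11G without FK506 differed from the same 2G libraries at 778 genes (4.84%), 503 higher (3.13%) and 275 lower (1.71%); both comparisons share the 2G libraries, so no overlap is read from them. A direct test of 11G+FK against 11G found 37 genes (0.23%), 35 lower with FK506 (0.218%) and 2 higher (0.0124%). Without 1 library the 11G count was 1405 or 316 (2G mouse 1 or 2) and 42 or 157 (11G mouse 1 or 2). The count of the direct test was 1 or 11 (11G mouse 1 or 2) and 1 or 0 (11G+FK mouse 1 or 2), where the 0 came with 613 genes at an unadjusted p under 0.05 by edgeR.

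The 332 calls had the same sign in both mice. Calling them from these same libraries favours a shared sign, here and in the fits below. Across all 16087 genes the changes of the mice were only loosely related. Pearson's r was 0.345, as a description across genes, which are not independent replicates. The changes of the calls began at 0.63 on the log2 scale among the higher and at -0.65 among the lower genes. The count rested on both FK506 libraries: it was 7 without the 11G+FK library of mouse 1 and 4 without that of mouse 2, against 129 and 162 without a 2G library. The 332 calls kept their direction in these 4 fits, and Npas4, AI480526 and 8430408G22Rik passed the threshold in each of them. Without the mouse block 5 genes passed: Npas4, AI480526, 8430408G22Rik, Chst12 and Gal3st1. Every other gene called against 2G lost its call without 1 or more of these 4 libraries, and below, the value of a gene without 1 library is given where a call or a statement turned on it or where a called value moved by over 1.5 times.

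**Figure D1:**
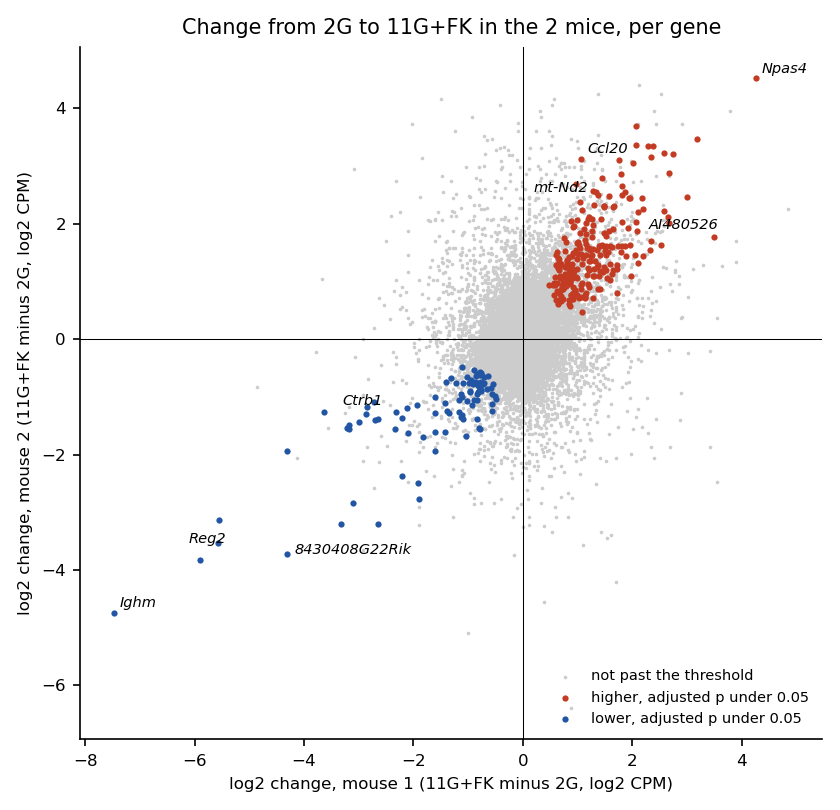
Each point is 1 of the 16087 genes, with the log2 change from 2G to 11G+FK in mouse 1 on the horizontal axis and in mouse 2 on the vertical axis; red points passed the threshold as higher (237) and blue points as lower (95). Coloured points lie in the upper right and lower left corners, since both mice moved the same way, with Npas4 at the far upper right and 8430408G22Rik and the acinar and immunoglobulin genes at the lower left, while the grey cloud shows genes for which the mice often differed.

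Npas4, Nr4a1 and Nr4a2, transcription factors that nerve and endocrine cells switch on with electrical activity, and Lbh, a transcriptional cofactor, were higher at 11G than at 2G. Their promoters are printed because with FK506 Npas4 still passed against 2G and the other 3 did not, while those 3 passed against 11G; the 4 were picked for this after their values were seen. Each sequence is the 250 bases before the RefSeq start, in lower case, with matches to the cAMP response element half-site, TGACG or its reverse complement CGTCA, in capitals. In RefSeq on build GRCm38.p6 they lie at chr19:4989972-4990221 on the minus strand (Npas4), chr17:72918055-72918304 on the plus strand (Lbh), chr15:101266596-101266845 on the plus strand (Nr4a1) and chr2:57124004-57124253 on the minus strand (Nr4a2), each adjoining the gene's start in the deposited tables.
Npas4: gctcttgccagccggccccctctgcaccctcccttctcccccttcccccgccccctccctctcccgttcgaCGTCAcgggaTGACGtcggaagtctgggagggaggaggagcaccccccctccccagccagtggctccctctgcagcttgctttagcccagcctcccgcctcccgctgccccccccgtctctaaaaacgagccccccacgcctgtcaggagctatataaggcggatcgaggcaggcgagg
Lbh: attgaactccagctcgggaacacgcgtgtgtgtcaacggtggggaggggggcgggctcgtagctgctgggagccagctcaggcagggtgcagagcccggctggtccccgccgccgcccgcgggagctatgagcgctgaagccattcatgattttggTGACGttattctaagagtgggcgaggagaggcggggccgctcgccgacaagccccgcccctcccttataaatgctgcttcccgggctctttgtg
Nr4a1: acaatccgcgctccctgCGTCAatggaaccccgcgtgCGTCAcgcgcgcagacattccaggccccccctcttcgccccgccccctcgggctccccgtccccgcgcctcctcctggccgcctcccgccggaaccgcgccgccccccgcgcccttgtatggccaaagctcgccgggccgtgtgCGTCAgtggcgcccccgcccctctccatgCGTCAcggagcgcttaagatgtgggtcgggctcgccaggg
Nr4a2: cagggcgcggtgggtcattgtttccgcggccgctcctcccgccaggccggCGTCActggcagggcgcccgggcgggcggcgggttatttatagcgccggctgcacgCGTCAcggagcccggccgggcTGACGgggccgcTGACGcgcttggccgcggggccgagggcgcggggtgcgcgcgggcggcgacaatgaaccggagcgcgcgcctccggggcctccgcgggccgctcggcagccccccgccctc

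The half-site occurred 2 times before Npas4, 1 time before Lbh, 4 times before Nr4a1 and 4 times before Nr4a2. It occurred in 17.8% of 32851 RefSeq promoters of the same length. The full element TGACGTCA, in 1.55% of promoters, was in none of these windows, nor was the AP-1 motif TGANTCA, in 6.75%. The letters GGAAA, the core that NFAT reads, on either strand, were present 1 time before Nr4a2 and in 55.6% of promoters. Such matches, and their absence from these windows, describe the letters only and show no binding.

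Npas4 stood at 1.28 and 1.74 CPM at 2G, at 77.3 and 60.1 at 11G and at 25.6 and 41.0 at 11G+FK. The groups did not overlap: with FK506 it was below 11G in both mice and far above 2G in both. It was 21.7-fold higher with FK506 than at 2G (log2 change 4.44 ± 0.30, adjusted p = 0.000224) beside 5.51 ± 0.31 without FK506. The difference between the 2, -1.07 on the log2 scale (95% interval -1.60 to -0.53), had an adjusted p of 0.149. Lbh stood at 64.4 and 60.3 at 2G, at 1247 and 840 at 11G and at 110 and 59.7 at 11G+FK. Its FK506 values overlapped those at 2G: the change from 2G was 0.40 ± 0.23 (adjusted p = 0.368, 95% interval -0.12 to 0.92), beside 4.04 ± 0.26 without FK506, and FK506 lowered it against 11G by -3.63 ± 0.25 (adjusted p = 0.000886). That difference from 11G had an adjusted p of 0.0707 without the 11G+FK library of mouse 2.

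**Figure D2:**
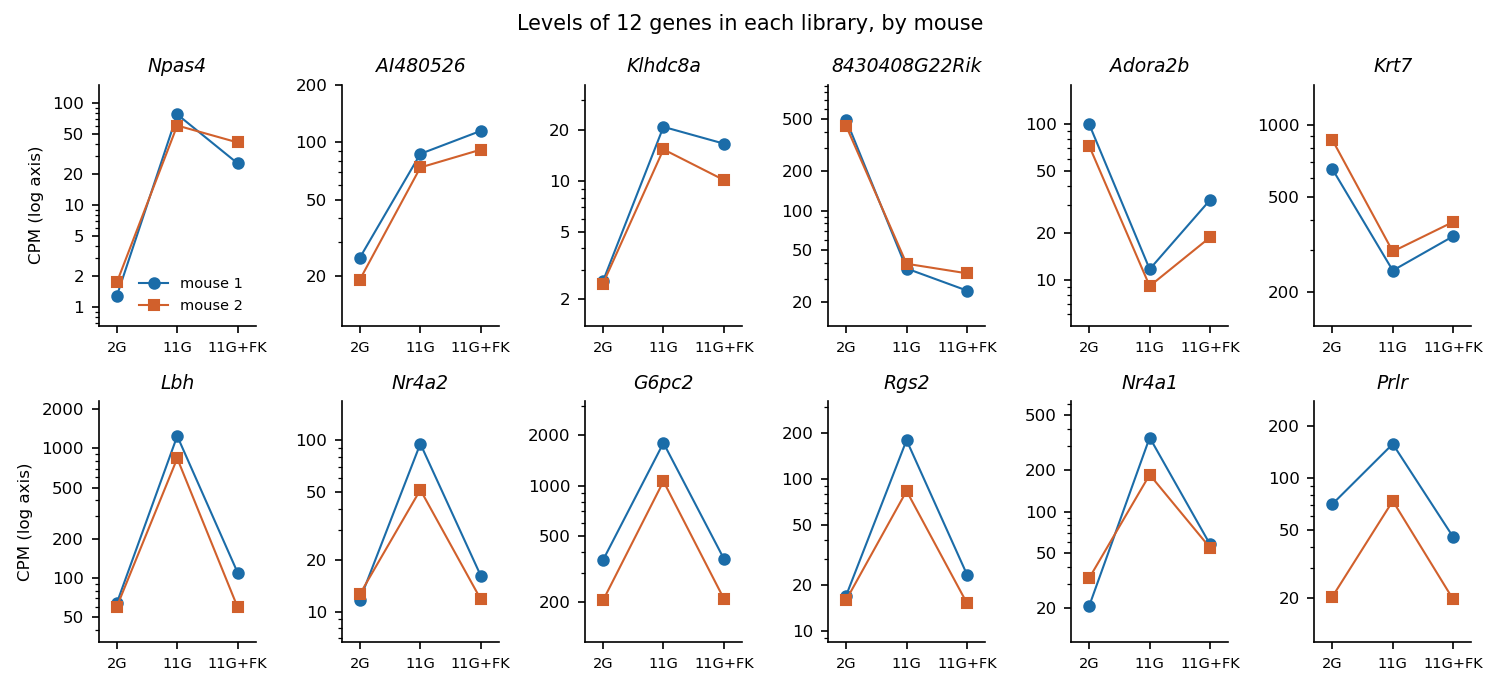
CPM on log axes in the 2G, 11G and 11G+FK libraries of mouse 1 (blue circles) and mouse 2 (orange squares) for 12 genes, 1 panel a gene, lines joining the libraries of a mouse. In the upper row the FK506 libraries stay on the 11G side of 2G (Npas4 25.6 and 41.0 against 1.28 and 1.74), whereas in the lower row Lbh, Nr4a2, G6pc2, Rgs2 and Prlr come back to or near the 2G level and Nr4a1 remains between.

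Among immediate early genes, the first genes that stimuli switch on, 1 of 38 tested was higher (Npas4) and 1 lower (Srf), with a median log2 change of 0.02 against -0.01 over all genes tested. At an unadjusted p under 0.05 there were 9 (5 higher), and DESeq2 called 3 higher and 2 lower. Over all 16087 genes tested, 3165 had an unadjusted p under 0.05 by edgeR, and DESeq2 called 457 higher and 318 lower. Together with the 1.47% higher and 0.591% lower by edgeR, these are the background for list counts here and below. Srf, the serum response factor that drives growth factor-induced and actin genes, fell from 99.1 and 141 CPM to 70.6 and 68.6 (log2 change -0.77 ± 0.17, adjusted p = 0.0498), and its counts may hold reads of the overlapping antisense gene Gm26904. Nr4a1 had 20.8 and 33.0 CPM at 2G, 344 and 185 at 11G and 57.8 and 54.7 with FK506. Both FK506 values were above both 2G values and below both 11G values. The change from 2G was 1.05 ± 0.29 and did not pass (adjusted p = 0.0868), while that from 11G did (-2.23 ± 0.29, adjusted p = 0.0152). The change from 2G was 0.61 without the 2G library of mouse 1 and 1.59 without that of mouse 2, and it passed without an 11G library (adjusted p = 0.0466 without mouse 1 and 0.0445 without mouse 2). Nr4a2 had 11.7 and 12.7 at 2G, 95.6 and 51.5 at 11G, and 16.2 and 11.8 with FK506, which overlapped 2G (0.16 ± 0.23, adjusted p = 0.734; against 11G -2.36 ± 0.23, adjusted p = 0.00373). Nr4a3 did not pass against 2G (0.46 ± 0.28, adjusted p = 0.384) or against 11G (-0.60 ± 0.27, adjusted p = 0.466). Of the AP-1 members, Fosb had 1.26 ± 0.34 (adjusted p = 0.0862) and Fos 0.54 ± 0.39 (adjusted p = 0.467). Egr1, a zinc finger factor of the same class, had 0.62 ± 0.18 (adjusted p = 0.100). Fos depended on 1 control library: its change was 1.57 with an adjusted p of 0.0328 without the 2G library of mouse 2, and -0.21 without that of mouse 1.

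G6pc2, Rgs2 and Prlr were among the genes that rose at 11G and were lower with FK506. A rule named the 10 genes with the largest difference between 11G+FK and 11G among those that passed both there and in 11G against 2G. It also asked for a mean of 1 FPKM or more over the 2G and 11G+FK libraries and left out unnamed gene models. These 10 had changes from 2G of -0.38 to 1.05 with FK506, none of which passed the threshold. Spsb4 (-2.59 from 11G) and 1700016P03Rik (-2.24), described below, fell outside these limits and did pass against 2G (2.51 and 3.03). Since the rule took the 10 for their change from 11G within these limits, their nearness to 2G is a description. G6pc2, the islet glucose-6-phosphatase that sends glucose 6-phosphate back to glucose, had 358 and 205 CPM at 2G, 1798 and 1060 at 11G, and 364 and 210 at 11G+FK. In each mouse its FK506 level was within a few CPM of its 2G level, with a fitted change of 0.03 ± 0.30 and a 95% interval of -0.65 to 0.71. Rgs2, which shortens G protein signals, went from 17.1 and 16 at 2G to 180 and 83.6 at 11G and stood at 23.6 and 15.3 with FK506 (change from 2G 0.20, 95% interval -0.56 to 0.97). Prlr, the prolactin receptor, had 70.5 and 20.4 at 2G, 157 and 73.6 at 11G, and 45.4 and 19.7 with FK506; its mice differed more than its 2G and FK506 groups (change -0.38, 95% interval -0.92 to 0.15).

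The remaining genes named by that rule, Megf9, Sgms2, Stk38l and Pde5a, followed the same course. Megf9, a membrane protein with EGF-like repeats, had a change from 2G of 0.17 ± 0.30 with FK506 and 2.76 ± 0.32 without it. Sgms2, a sphingomyelin synthase, had 0.01 ± 0.21 and 1.84 ± 0.21. Stk38l, a serine/threonine kinase, had 0.32 ± 0.17 and 2.13 ± 0.17. Each of these 3 differed between 11G+FK and 11G with an adjusted p of 0.0034 to 0.0125. Pde5a, which breaks down cyclic GMP, had 0.28 ± 0.22 with FK506 and 1.99 ± 0.22 without it (adjusted p = 0.0139 for the difference). Irs2, the adaptor of the insulin receptor, was named from a fixed set of genes and not by that rule. It had 85.7 and 23.4 CPM at 2G, 128 and 57.8 at 11G and 38.1 and 16.4 with FK506. It was lowest with FK506 in each mouse, but the change from 2G, -0.88 ± 0.25, did not pass (adjusted p = 0.0995), and that from 11G did (-1.78 ± 0.26, adjusted p = 0.0253). The change of Irs2 from 2G was -0.38 without the 2G library of mouse 1 and -1.28 without that of mouse 2, where it passed (adjusted p = 0.0397).

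**Figure D3:**
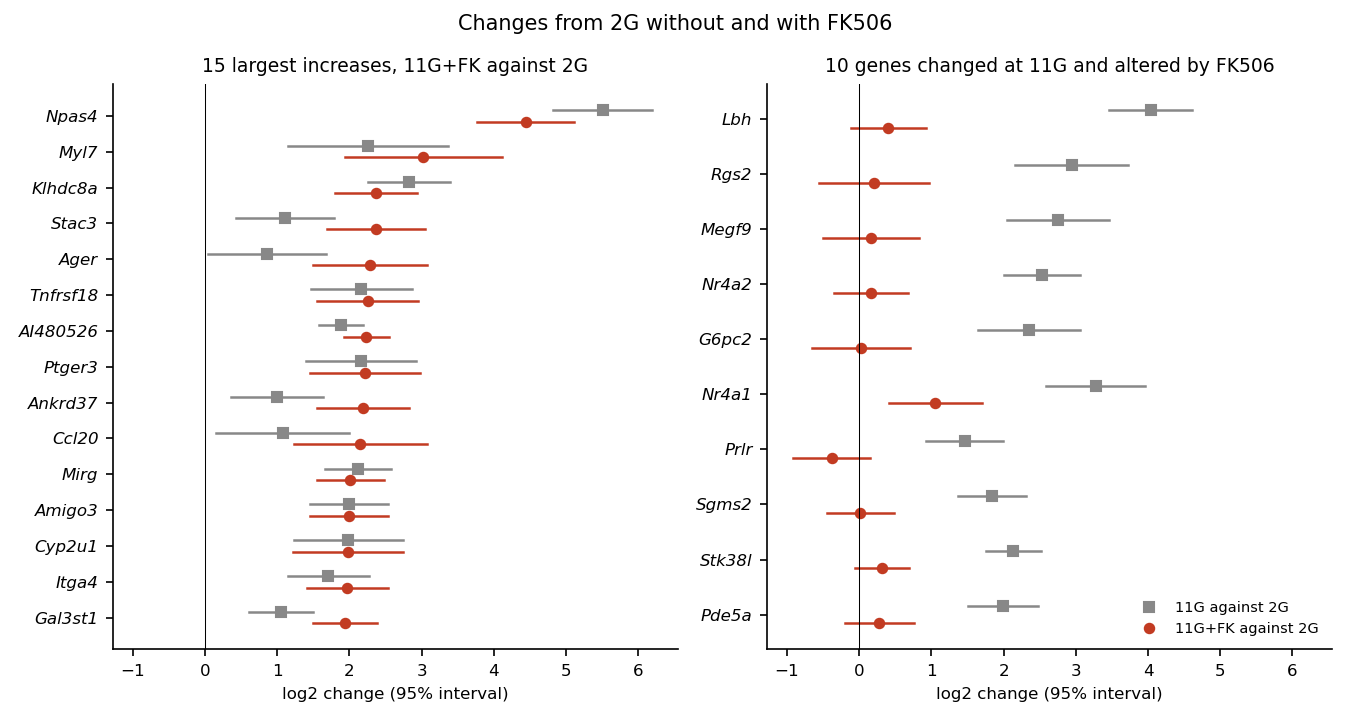
Fitted log2 change from 2G with its 95% interval for 11G (grey squares) and 11G+FK (red circles); the left panel has the 15 largest increases in 11G+FK against 2G and the right panel the 10 genes chosen for their difference between 11G+FK and 11G. Red intervals on the left lie above 0, with Npas4 at 4.44, and those on the right cross 0 except that of Nr4a1 (0.41 to 1.70), whose adjusted p of 0.0868 did not pass.

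The 15 largest increases by rule, after Npas4, were genes of low or moderate level from many functions. AI480526, a long noncoding RNA, had 24.9 and 19.1 CPM at 2G, 87.0 and 73.9 at 11G, and 115 and 91.6 with FK506. It was 4.70-fold higher with FK506 than at 2G (log2 change 2.23 ± 0.14, adjusted p = 0.000145), and its difference from 11G was 0.36 ± 0.13 with an adjusted p of 0.383; the gene model Gm26745 overlaps it on the same strand. Klhdc8a, a kelch-domain protein, had 2.56 and 2.48 at 2G, 20.9 and 15.4 at 11G, and 16.7 and 10.2 with FK506 (2.37 ± 0.25, adjusted p = 0.00509). Mirg, a noncoding RNA of the imprinted Dlk1 and Meg3 region that hosts microRNAs, had 16.2 and 12.5 at 2G, 73.6 and 51.5 at 11G, and 51.4 and 62.4 with FK506 (2.01 ± 0.21, adjusted p = 0.00493). In these 3 genes no FK506 value fell to a 2G value, and the FK506 and 11G libraries overlapped for Klhdc8a and Mirg.

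Several of these increases were of nearly the same size with and without FK506. Amigo3, an adhesion protein with leucine-rich repeats, had 2.05 and 2.52 CPM at 2G, 9.02 and 9.19 at 11G, and 8.86 and 9.33 with FK506. Its change was 1.99 ± 0.24 with FK506 and 2.00 ± 0.24 without it, and the 95% interval of the difference ran from -0.50 to 0.49. The antisense gene Rnf123 overlaps it. For Cyp2u1, a fatty acid hydroxylase, the changes were 1.98 ± 0.34 and 1.99 ± 0.34 (difference -0.69 to 0.68). For Ptger3, an inhibitory receptor of prostaglandin E, they were 2.21 ± 0.34 and 2.16 ± 0.34 (difference -0.62 to 0.73). For Tnfrsf18, a receptor of the TNF family overlapped by Gm16008, they were 2.25 ± 0.31 and 2.17 ± 0.31 (difference -0.54 to 0.72). For Itga4, the integrin α4 subunit, overlapped by Cerkl, they were 1.97 ± 0.25 and 1.71 ± 0.25 (difference -0.27 to 0.80). These 5 intervals include 0 but also changes of up to about 0.5 to 0.8 on the log2 scale, so equal action is not shown.

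In the rest of the 15 the FK506 value was the higher. Gal3st1, which makes the sulfated lipid sulfatide, had 5.33 and 5.57 CPM at 2G, 11.6 and 10.9 at 11G, and 20.4 and 21.4 with FK506, so the 3 groups did not overlap. Its change was 1.94 ± 0.20 with FK506 and 1.05 ± 0.20 without it, with an adjusted p of 0.127 for the difference. Stac3, an adaptor of muscle calcium channels, had 2.36 ± 0.30 against 1.11 ± 0.31 (difference adjusted p = 0.155). Ager, a receptor of glycated proteins, had 2.28 ± 0.36 against 0.86 ± 0.37 (adjusted p = 0.169). Ankrd37, a target of hypoxia-inducible factors that overlaps Ufsp2 and Lrp2bp, had 2.19 ± 0.29 against 1.0 ± 0.29 (adjusted p = 0.150). Myl7, an atrial myosin light chain, had 3.02 ± 0.49 against 2.25 ± 0.50 from 7 and 9 reads at 2G and 35 and 76 with FK506. None of these differences from 11G passed the threshold. Ccl20, a chemokine that attracts lymphocytes, had 3.28 and 3.31 CPM at 2G, 4.32 and 11.7 at 11G and 6.96 and 29.3 with FK506; its change of 2.15 ± 0.41 (adjusted p = 0.0343) was 1.36 without the 2G library of mouse 2 and 1.47 without the 11G+FK library of mouse 2.

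Intermediate responses were picked out after their values were seen. Spsb4, an adaptor of a ubiquitin ligase, had 0.256 and 0.914 CPM at 2G, 20.5 and 19.4 at 11G and 3.42 and 3.23 with FK506. The groups did not overlap, and both steps passed: 2.51 ± 0.45 from 2G (adjusted p = 0.0284) and -2.59 ± 0.37 from 11G (adjusted p = 0.0218). Gm16010 overlaps it on the other strand. Chst12, a chondroitin sulfotransferase, had 6.62 and 6.87 at 2G, 46.6 and 38.7 at 11G and 23.3 and 21.1 with FK506. Its groups did not overlap either; the change from 2G passed (1.72 ± 0.18, adjusted p = 0.00493) and that from 11G did not (-0.94 ± 0.17, adjusted p = 0.0697).

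Another gene of this kind, 1700016P03Rik, is a noncoding transcript listed at chromosome 11, 75172560 to 75177633, on the plus strand. RefSeq on build GRCm38.p6 places the hairpins of Mir212 and Mir132 within these coordinates; the tables name no build, but their gene starts adjoined the 4 RefSeq promoters above. miR-132 and miR-212 are known in neurons as a pair made with CREB activity. Their mature 3p sequences, from RefSeq, are shown because they share 1 seed; bases 2 to 8, the seed, are in capitals, and the sequences lie at chr11:75173723-75173744 (miR-132-3p) and chr11:75173443-75173464 (miR-212-3p), both on the plus strand.
mmu-miR-132-3p: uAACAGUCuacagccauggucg
mmu-miR-212-3p: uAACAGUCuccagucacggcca
The transcript had 10 and 8 reads at 2G, 444 and 233 at 11G and 59 and 63 with FK506, or 0.513 and 0.348 CPM, 21.8 and 12.2, and 3.31 and 3.70. The 3 groups did not overlap, with FK506 above 2G and below 11G in both mice. It was 8.16-fold higher with FK506 than at 2G (log2 change 3.03 ± 0.44, adjusted p = 0.0176), beside 5.27 ± 0.43 without FK506, and both steps passed, since the difference of -2.24 ± 0.34 had an adjusted p of 0.0323. Without 1 of the 4 libraries its change from 2G was 2.74 to 3.30, with an adjusted p of 0.0547 to 0.289. Mature microRNAs were not measured, and Ovca2 overlaps the gene on the other strand, so some reads may be of that gene.

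Noncoding genes were 52 of the 237 higher genes (21.9%) and 2 of the 95 lower ones (2.11%), beside 1220 of the 16087 tested (7.58%). The share of all counts in noncoding gene types was 1.65% and 1.01% at 2G and 1.85% and 1.84% with FK506, and its part in these counts of genes was not tested. Neat1, the RNA scaffold of paraspeckles, had 1445 and 1219 CPM at 2G, 4172 and 3695 at 11G and 2852 and 3191 with FK506. The 3 groups did not overlap, with FK506 between the others, and the change from 2G passed (1.19 ± 0.21, adjusted p = 0.0257). Beside Mirg, 3 other transcripts of the Dlk1 and Meg3 region were looked at after their values were seen. Rtl1, a retrotransposon-derived gene needed in the placenta, was higher (1.58 ± 0.33, adjusted p = 0.0432), whereas Meg3 (0.74 ± 0.22, adjusted p = 0.108) and Rian (0.58 ± 0.18, adjusted p = 0.109) did not pass.

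**Figure D4:**
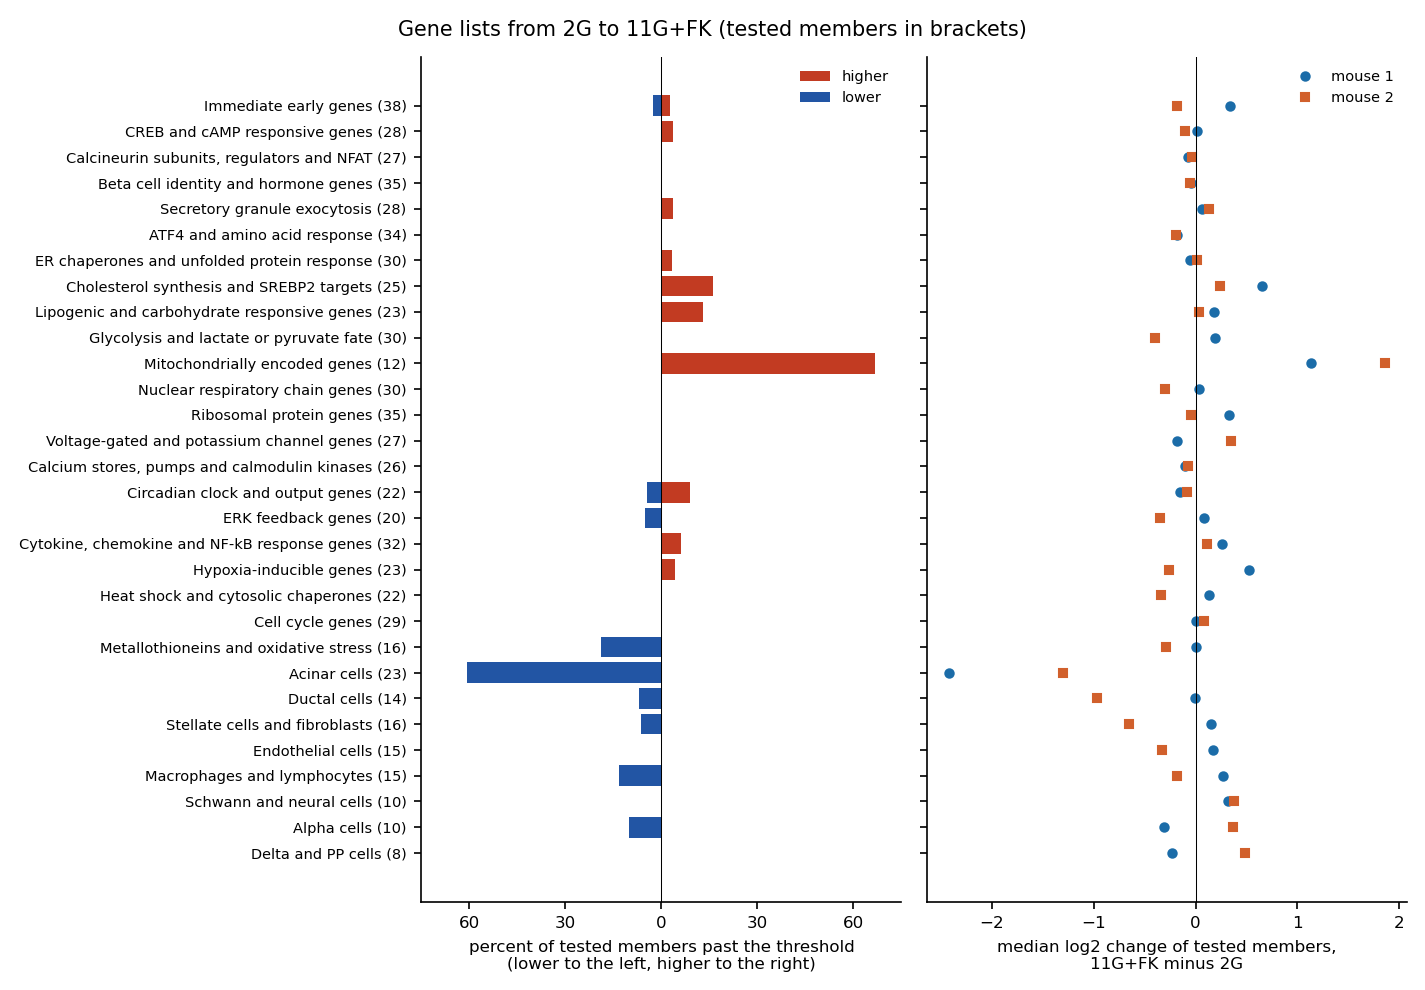
Left, the percent of tested members of each gene list past the threshold in 11G+FK against 2G, higher to the right in red and lower to the left in blue; right, the median log2 change of the tested members in mouse 1 (blue circles) and mouse 2 (orange squares). The mitochondrially encoded genes (8 of 12 higher) and the acinar markers (14 of 23 lower) stand farthest out, in the same direction in both mice, while most lists have no or 1 member past the threshold.

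Of 28 tested CREB and cAMP responsive genes, 1 was higher and 0 were lower, with a median change of 0.06. At an unadjusted p under 0.05 there were 9 (4 higher), and DESeq2 called 3 higher and 2 lower. The one was Rem2, a small GTPase that restrains calcium channels, with 3.18 and 4.61 CPM at 2G, 14.3 and 12.4 at 11G and 10.6 and 10.8 with FK506 (1.46 ± 0.26, adjusted p = 0.0274). Crem, the cAMP response element modulator, had 0.06 with FK506 and 1.45 without it. At 11G without FK506, 6 of the 28 CREB and cAMP responsive genes were higher than at 2G and 0 lower (median 0.36). The share of higher genes among all tested was 3.13% in that comparison. Directly against 11G, 5 of the 28 were lower with FK506 and 0 higher (median -0.60), beside 0.218% lower of all genes tested. Of 27 genes for calcineurin subunits, regulators and NFAT factors, none passed in either direction (median -0.06). Within it the catalytic subunits Ppp3ca and Ppp3cb had 0.07 and -0.17, the regulatory subunit Ppp3r1 -0.03, Nfatc1 -0.06 and Nfatc2 0.27, while Fkbp1a, which encodes the protein that FK506 binds, had -0.20. Of this list 3 genes had an unadjusted p under 0.05, and DESeq2 called 0. ERK feedback genes had 0 of 20 higher and 1 lower by edgeR (7 at an unadjusted p under 0.05, and 1 higher and 2 lower by DESeq2), Dusp8, a phosphatase of stress-activated kinases, which fell from 112 and 85.3 CPM to 52.0 and 50.5 (-0.93 ± 0.16, adjusted p = 0.0257).

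Hormone and identity genes of β cells showed no call: of 35 tested, 0 were higher and 0 lower, with a median change of -0.03. Without FK506 8 of them were higher, beside 3.13% of all genes tested. With FK506 5 of the 35 had an unadjusted p under 0.05, and DESeq2 called 2, both higher. Ins2 had 53388 and 53564 CPM at 2G and 63300 and 43148 with FK506, opposite directions in the 2 mice (-0.03 ± 0.39, 95% interval -0.89 to 0.83). Ins1 had 0.16 ± 0.31 and Iapp, which encodes amylin, 0.24 ± 0.34. The transcription factors Pax6 (0.94, adjusted p = 0.057) and Pdx1 (0.86, adjusted p = 0.087) were nearest the threshold. Pcsk1, a prohormone convertase, had -0.34 with FK506 and 1.38 without it, and Scg3, a granule protein, -0.27 and 1.25. Directly against 11G, 3 of the 35 genes were lower with FK506 and 0 higher, beside 0.218% lower of all genes tested. In the other hormones, Gcg had -0.44 ± 0.38, Sst 0.68 ± 0.21 (adjusted p = 0.111) and Ppy 0.68 ± 0.22 (adjusted p = 0.125). Of 28 exocytosis genes 1 was higher by edgeR and by DESeq2 (8 at an unadjusted p under 0.05), Unc13a by edgeR, which readies vesicles for fusion. It had 128 and 91.2 CPM at 2G, 275 and 219 at 11G and 237 and 209 with FK506 (1.04 ± 0.15, adjusted p = 0.0182); Colgalt1 overlaps it on the other strand.

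Genes of fatty acid synthesis and sugar handling, several of them induced by the carbohydrate response factor ChREBP, held 3 calls. Of 23 lipogenic and carbohydrate responsive genes, 3 were higher and 0 lower with FK506 (median 0.13), beside 1.47% higher of all genes tested. Elovl6, a fatty acid elongase, rose from 22.7 and 13.6 CPM to 46.6 and 40.4 (1.30 ± 0.23, adjusted p = 0.0258). Scd2, a fatty acid desaturase, rose from 55.3 and 58.0 to 217 and 123 (1.58 ± 0.25, adjusted p = 0.0202), and the change was 1.0 without the 11G+FK library of mouse 1. Txnip, the thioredoxin inhibitor that glucose induces, did not pass, with 118 and 179 CPM at 2G and 300 and 184 with FK506 (0.58 ± 0.35, adjusted p = 0.380). It, too, turned on the control: the change was 1.46 with an adjusted p of 0.0328 without the 2G library of mouse 2 and -0.08 without that of mouse 1. Its relative Arrdc4 had 0.13 ± 0.24. No gene of the 30 for glycolysis and pyruvate fate passed edgeR or DESeq2 (median -0.13), and 3 had an unadjusted p under 0.05.

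Cholesterol synthesis genes had 4 of 25 higher and 0 lower, with a median change of 0.39 (0.65 in mouse 1 and 0.24 in mouse 2). Over all genes tested 1.47% were higher, and 3165 of 16087 had an unadjusted p under 0.05 in either direction by edgeR. Dhcr7, which makes cholesterol from its immediate precursor, had 9.39 and 5.83 CPM at 2G, 13.5 and 12.1 at 11G and 21.7 and 13.4 with FK506. Its FK506 libraries lay above those at 2G and overlapped those at 11G (1.2 ± 0.22 from 2G, adjusted p = 0.0284; 0.41 ± 0.21 from 11G, adjusted p = 0.507). Insig1, which holds back the SREBP factors, had 0.97 ± 0.21 (adjusted p = 0.0473). Sqle, squalene epoxidase, had -0.06. Of the 4 calls, 1 was left without the 2G library of mouse 2 and 0 without any 1 of the other 3 libraries, while 11 of the 25 genes, all higher, had an unadjusted p under 0.05 and DESeq2 called 7. Edem2, which trims misfolded glycoproteins, was the 1 of 30 unfolded protein response genes that passed, higher by 0.80 ± 0.15 (adjusted p = 0.0289).

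Transcripts of the mitochondrial genome were higher with FK506 at 8 of 12 tested genes and lower at 0, beside 1.47% higher of all genes tested. Their median change was 1.53 (1.13 in mouse 1 and 1.86 in mouse 2). They encode core subunits of the respiratory chain and of ATP synthase. mt-Nd2, a complex I subunit, had 512 and 380 CPM at 2G, 1523 and 1069 at 11G and 1435 and 1883 with FK506 (1.93 ± 0.26, adjusted p = 0.0124). mt-Cytb, of complex III, had 1558 and 1357 at 2G, 3574 and 3089 at 11G and 3462 and 5492 with FK506 (1.62 ± 0.28, adjusted p = 0.0257). In both genes the FK506 libraries lay above 2G, and the FK506 library of mouse 2 was the highest of the 6. The genes share 1 genome and largely 1 precursor transcript, and mt-Nd6 and mt-Nd5 overlap on opposite strands. All 12 were higher by DESeq2, but the edgeR count was 2 and 1 without the 2G library of mouse 1 or 2, 1 and 0 without the FK506 library of mouse 1 or 2, and 0 without the mouse block; the median change over these fits was 1.09 to 1.90. Nuclear genes of the same chain had 0 of 30 higher and 0 lower by edgeR (median -0.18), with 3 at an unadjusted p under 0.05, and 1 lower by DESeq2. Of all counts, mitochondrial genes took 1.21% and 1.03% at 2G, 1.99% and 1.92% at 11G and 2.11% and 3.50% with FK506; what part RNA quality has in this was not tested.

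Among the lower genes, 8430408G22Rik, listed as Depp1 in the gene name table and known as a FOXO-induced gene of fasting, had the lowest adjusted p of all genes tested; it was picked after its values were seen. It had 493 and 443 CPM at 2G, 36.3 and 39.4 at 11G and 24.6 and 33.3 with FK506. Both FK506 values lay below both 11G values, and the 2G values stood far above. The gene was 16.3-fold lower with FK506 than at 2G (log2 change -4.03 ± 0.18, adjusted p = 1.45e-05), beside -3.63 ± 0.18 without FK506; Rassf4 overlaps it on the other strand. Kcnk13, a potassium leak channel, had 8.57 and 7.09 at 2G, 2.70 and 1.72 at 11G and 0.954 and 0.939 with FK506. Its groups did not overlap, and it was 8.20-fold lower than at 2G (-3.04 ± 0.38, adjusted p = 0.0113). Adora2b, the low-affinity adenosine receptor, had 99.6 and 72.2 at 2G, 11.7 and 9.09 at 11G and 32.5 and 18.7 with FK506. Here the FK506 libraries lay between the others: the change from 2G was -1.76 ± 0.23 (adjusted p = 0.0113), beside -3.04 ± 0.24 without FK506, and the difference of 1.28 ± 0.24 had an adjusted p of 0.0733.

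Of 16 genes for metallothioneins and oxidative stress, 0 were higher and 3 lower (median -0.18), beside 0.591% lower of all genes tested. The 3, Mt1, Mt2 and Slc30a1, are known to handle zinc. The 3 became 2 without the 2G library of mouse 2 and 0 without any 1 of the other 3 libraries. Mt1, a metallothionein, had 2475 and 2731 CPM at 2G, 1956 and 1632 at 11G and 968 and 1120 with FK506. Its FK506 values were the lowest, with a change of -1.32 ± 0.27 from 2G (adjusted p = 0.0406) and of -0.80 ± 0.27 from 11G that did not pass (adjusted p = 0.331). Mt2 had -1.45 ± 0.26 (adjusted p = 0.0279). Slc30a1, which exports zinc from the cell, fell from 46.7 and 45.4 to 20.7 and 22 (-1.11 ± 0.17, adjusted p = 0.0198) beside -1.29 ± 0.18 without FK506.

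Of 22 clock genes, 2 were higher and 1 lower (median -0.15), with 9 at an unadjusted p under 0.05 and, by DESeq2, 3 higher and 1 lower. Npas2, a partner of the clock protein BMAL, had 7.80 and 6.48 CPM at 2G, 41.5 and 28.7 at 11G and 23.5 and 16.1 with FK506 (1.46 ± 0.23, adjusted p = 0.0201). Nr1d1, a clock repressor overlapped by Thra, had 199 and 215 at 2G, 100 and 98.4 at 11G and 136 and 126 with FK506 (-0.66 ± 0.14, adjusted p = 0.0435). In both genes FK506 lay between the other groups without overlap, and neither difference from 11G passed (adjusted p = 0.221 and 0.347). Per3, a period gene, had 37.1 and 21.3 at 2G, 37.5 and 29.0 at 11G and 58.7 and 49.0 with FK506 (0.92 ± 0.17, adjusted p = 0.0288).

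Per3 belongs to the genes called here whose change at 11G was far from the threshold, with an adjusted p above 0.25. Of the 10 such genes with the lowest adjusted p here, 7 were higher and 3 lower with FK506 than at 2G. Csf3, a growth factor of neutrophils, had 12.7 and 40.4 CPM at 2G, 12.9 and 29.5 at 11G and 27.8 and 66.9 with FK506. The mice differed in level, but in each the FK506 library was the highest (0.91 ± 0.17 from 2G, adjusted p = 0.0333). Csf3 alone of the 10 also passed against 11G (1.14 ± 0.17, adjusted p = 0.0323), but its adjusted p there was 0.444 to 0.629 when any 1 of those 4 libraries was left out. Zfp568, a zinc finger repressor, was lower by -1.07 ± 0.18 (difference from 11G adjusted p = 0.0697), and Zxdc, a zinc finger cofactor, by -0.78 ± 0.15 (0.169). Tmem194b, a membrane protein, was higher by 1.06 ± 0.20 and Thap3, a THAP-domain protein, by 0.96 ± 0.19. Slc37a4, which carries glucose 6-phosphate into the endoplasmic reticulum, was higher by 0.83 ± 0.17, Btbd2 by 0.67 ± 0.13 and Ankrd23, a muscle ankyrin repeat protein, by 1.30 ± 0.26. For these 5 the adjusted p against 11G was 0.107 to 0.331, so a difference between the FK506 and 11G libraries was not shown for them.

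Cytokine, chemokine and NF-kB response genes had 2 of 32 higher (Ccl20 and Csf3) and 0 lower, with a median of 0.20 against -0.18 without FK506. At an unadjusted p under 0.05 there were 11, all higher, and DESeq2 called 7 higher; without 1 library edgeR called 0 or 1. ATF4 and amino acid response genes had 0 of 34 past the threshold in either direction with FK506 (median -0.21). Without it 9 were lower and 1 higher (median -0.50), beside 1.71% lower and 3.13% higher of all genes tested. With FK506 7 of the 34 had an unadjusted p under 0.05, and DESeq2 called 2, both lower. The direct comparison of 11G+FK with 11G called none of these 34. Ribosomal protein genes (0 of 35), heat shock genes (0 of 22), cell cycle genes (0 of 29), channel genes (0 of 27) and calcium store genes (0 of 26) had no member past the threshold in either direction by edgeR, with medians between -0.12 and 0.13. In the same order 0, 4, 5, 9 and 5 of them had an unadjusted p under 0.05. DESeq2 called 1 cell cycle gene lower and 1 channel gene in each direction, and none in the other 3 lists. Hypoxia-inducible genes had 1 of 23 higher (Ankrd37) and 0 lower, and their median change was 0.53 in mouse 1 but -0.27 in mouse 2.

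Actb, Actg1 and Ankrd1 were looked at after their values were seen, so they stand for no list. Actb, cytoplasmic β-actin, had 910 and 1737 CPM at 2G, 395 and 652 at 11G and 419 and 702 with FK506 (-1.22 ± 0.18, adjusted p = 0.0176). Actg1, cytoplasmic γ-actin, had 1088 and 1398 at 2G, 520 and 549 at 11G and 498 and 552 with FK506 (-1.23 ± 0.18, adjusted p = 0.0173). The 11G and FK506 values of both genes lay below their 2G values and overlapped each other. Ankrd1, a stretch-responsive cofactor, had -1.37 ± 0.28 (adjusted p = 0.0415). Acta2, smooth muscle actin and a stellate cell marker, had 4.72 and 5.13 at 2G and 1.23 and 0.704 with FK506 (-2.34 ± 0.40, adjusted p = 0.0257), the 1 of 16 stellate markers past the threshold. Actin genes have near-identical copies, so reads of one could be counted to another.

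Digestive enzyme genes of acinar cells, the exocrine cells around the islets, were lower at 14 of 23 tested markers and higher at 0. Their median change was -1.79 (-2.43 in mouse 1 and -1.3 in mouse 2), and 0.591% of all genes tested were lower. All 23 had an unadjusted p under 0.05 by edgeR, 21 lower and 2 higher, and DESeq2 called 16 lower and 0 higher. Ctrb1, chymotrypsinogen, had 188 and 308 CPM at 2G, 19 and 130 at 11G and 23.6 and 114 with FK506 (-2.26 ± 0.41, adjusted p = 0.0289). Cela1, an elastase, had 58.3 and 116 at 2G and 13.4 and 51.1 with FK506 (-1.63 ± 0.25, adjusted p = 0.0198). In each mouse the FK506 library held less of both, with the larger drop in mouse 1, and close to what the 11G library of that mouse held. The 30 acinar markers in the tables made up 0.0812% and 0.147% of counts at 2G, 0.0144% and 0.0692% at 11G and 0.0177% and 0.0646% with FK506, and in the 4 libraries of the comparison 1 to 4 of them were at 0. At 2G these were Amy2a1 in both mice and Amy2b in mouse 1. With FK506 they were Prss1, Amy2a1 and Try10 in mouse 1, and Rbpjl, Ctrc, Amy2a1 and Amy2b in mouse 2. The 14 calls became 11 without the 2G library of mouse 2 and 0 without any 1 of the other 3 libraries or without the mouse block, with medians of -2.30 to -1.43 over these fits. In bulk RNA, fewer cells of a type and less RNA per cell cannot be told apart, and the part of acinar RNA in other decreases was not tested. Reg1, a secreted acinar lectin, fell by 3.16 on the log2 scale (-2.01 without the 2G library of mouse 1), and the trypsins Try5 and Try4 by 2.50 and 1.92 (-1.38 and -1.21 without it); these families have near-identical members.

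The 15 largest decreases also included the genes that follow, of which Ighm and Igkc are on the macrophage and lymphocyte list. Pla2g1b, the pancreatic phospholipase, was 5.33-fold lower with FK506 than at 2G, beside 4.36-fold at 11G. Klk1, tissue kallikrein, was 4.82-fold lower, beside 3.99-fold at 11G. Chp2, a calcineurin B homologue of gut epithelium, was 5.30-fold lower (adjusted p = 0.0339), beside 10.5-fold at 11G. Hpgd, which inactivates prostaglandins, was 4.81-fold lower (adjusted p = 0.0482), beside 9.70-fold at 11G. Ighm, the immunoglobulin μ chain of B cells, had 180 and 67 reads at 2G, 6 and 0 at 11G and 0 and 1 with FK506. Igkc, the κ light chain, had 99 and 33 reads at 2G, 2 and 1 at 11G and 1 and 2 with FK506. The secreted lectin Reg2 had 192 and 112 reads at 2G, 1 and 24 at 11G and 2 and 5 with FK506. Its relative Reg3b had 203 and 91 reads at 2G, 8 and 27 at 11G and 3 and 5 with FK506. Spink3, a trypsin inhibitor, had 42 and 85 reads at 2G, 5 and 26 at 11G and 3 and 6 with FK506. With so few reads on one side no fold is given for these 5 genes, and immunoglobulin and Reg genes share sequence with their relatives. Against 11G, none of the genes in this paragraph passed the threshold.

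Of 14 ductal markers 1 was lower and 0 were higher (median -0.57), with 4 lower at an unadjusted p under 0.05 and 3 lower by DESeq2. The median was -1.09 without the 2G library of mouse 1 and 0.07 without that of mouse 2. The call was Krt7, a keratin, with 655 and 867 CPM at 2G, 246 and 296 at 11G and 343 and 394 with FK506 (-1.04 ± 0.16, adjusted p = 0.0198). Its groups did not overlap. The summed ductal share was 0.304% and 0.603% at 2G and 0.316% and 0.316% with FK506, so it fell in mouse 2 only. Endothelial markers had 0 of 15 past the threshold by edgeR or DESeq2 (3 at an unadjusted p under 0.05), at 0.134% and 0.243% of counts at 2G and 0.154% and 0.227% with FK506. Schwann and neural markers had 0 of 10 by either tool (1 at an unadjusted p under 0.05). Macrophage and lymphocyte markers had 2 of 15 lower, Ighm and Igkc, and both also passed as lower at 11G than at 2G. The T cell gene Cd3e was at 0 in all 4 libraries, Ighm in the FK506 library of mouse 1 and Cd8a in that of mouse 2. Of 10 α cell markers 1 was lower and 0 were higher. The α cell share was 1.62% and 0.371% at 2G and 1.06% and 0.355% with FK506, a wider gap between mice than between groups. Delta and PP markers had 0 of 8 past the threshold by edgeR, 5 at an unadjusted p under 0.05 and 3 higher by DESeq2.

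**Figure D5:**
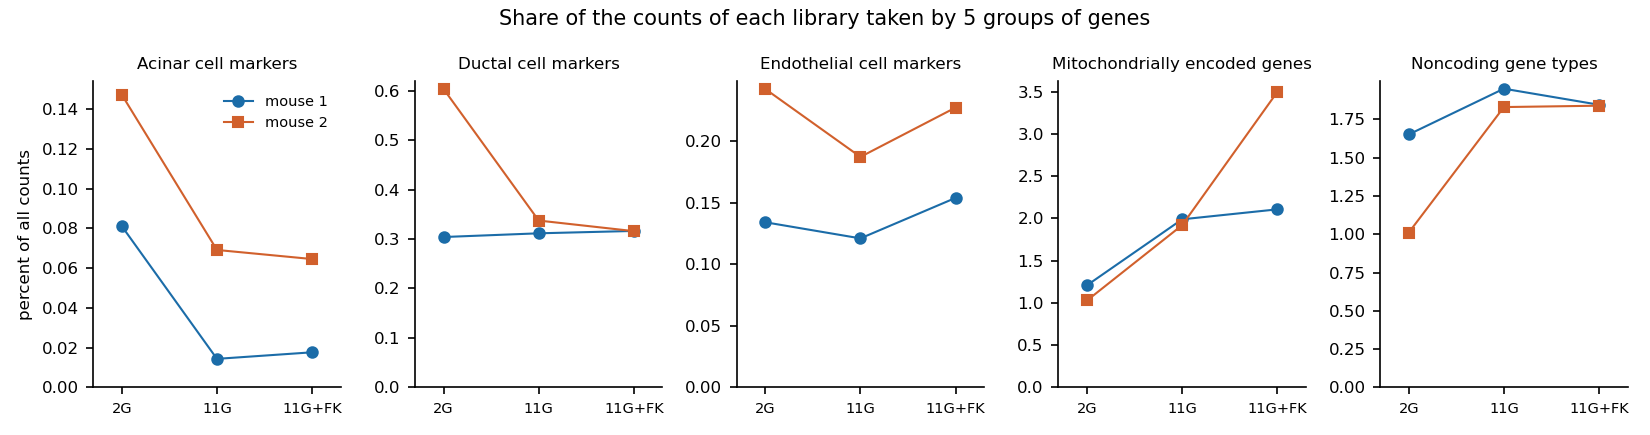
Percent of all counts of a library taken by acinar, ductal and endothelial markers, mitochondrially encoded genes and noncoding gene types, for the 2G, 11G and 11G+FK libraries of mouse 1 (blue circles) and mouse 2 (orange squares), axes starting at 0. The acinar share is highest at 2G in both mice (0.0812% and 0.147%), the ductal share is high in the 2G library of mouse 2 alone (0.603%), and the mitochondrial share is highest in the FK506 library of mouse 2 (3.50%).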

How the data were processed

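Total RNA of isolated islets was sequenced in 12 libraries, 2 mice in each of 6 groups. The authors deposited 8 tables, each of 2 libraries of 1 mouse. Per the file headers these hold, for each gene, FPKM values and unnormalized read counts, and beside them the authors' normalized counts, a signal that was a constant multiple of the raw counts within each column (largest relative departure 9.8e-15) and was not tested. Not given in the sources used here are the genome build, strand use, aligner and counter.

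Raw counts were joined by gene identifier into 24503 genes, with genes absent from a table at 0; the 11G counts of a mouse differed at 0 genes between tables, and 0 columns of per-sample values were left unused. The 8 wild-type libraries were fitted together in edgeR 4.0.16 (R 4.3.3) by the two-sided quasi-likelihood test, with TMM factors, filterByExpr (minimum count 10, minimum total 15), the mouse as a block and 3 residual degrees of freedom, which left 16087 genes. They were the 2G, 11G, 11G+D and 11G+FK libraries. Those of 11G+D, with diazoxide, thus entered the filter, the TMM factors and the estimate of the spread. The biological coefficient of variation was 16.2%. Standard errors were the absolute log2 change divided by the root of F. Log2 changes per mouse used a prior count of 1. The procedure was tested on simulated counts. Mouse numbers in the labels recur under each condition and pair the libraries; deviations from the group means of same-numbered libraries correlated across genes by 0.15 to 0.46. With 2 mice a group, p-values measure the spread between these few libraries, shared across genes.

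The comparison and the 30 gene lists (22 pathways, 8 cell types) were chosen with earlier results of these data known, so lists were given by counts and medians with no test. Named were the 15 largest increases and decreases among called genes for which the mice had 1 sign and the mean was 1 FPKM or more, up to 6 called members of a list by adjusted p, and a fixed set that included hormones, early genes and calcineurin subunits. Also named were the 10 genes with the largest change in 11G+FK against 11G among those past the threshold there and in 11G against 2G. These needed a mean of 1 FPKM or more over the 2G and 11G+FK libraries. The last rule named the 10 with the lowest adjusted p here among those above 0.25 in 11G against 2G. Unnamed gene models were left out of these rules. Genes said to be picked after their values were seen stand outside them. Promoters of 4 genes, matched by symbol, and the microRNAs came from RefSeq on GRCm38.p6. Alternatives were RLE size factors, DESeq2 1.42.0, no block, 10 CPM in 2 libraries or no filter, other sets of libraries in the fit, and leaving out 1 library of 2G, 11G or 11G+FK. The 11G+D libraries were not left out singly. Some genes that met these rules are not reported here.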

Additional observations from a re-analysis of the deposited data

How the results depend on the processing

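The 332 calls of 11G+FK against 2G (237 higher, 95 lower) became 775 with DESeq2 (457 and 318, with 329 of the 332 among them), 992 with no filter on low counts (624 and 368), 1026 in a fit of only the 4 libraries (575 and 451) and 184 with at least 10 CPM in 2 libraries (151 and 33). RLE size factors gave 309 (214 and 95) and all 12 libraries in 1 fit 300 (174 and 126). Without the replicate block, which gives up the pairing by mouse, 5 genes passed in this comparison, 68 of 778 in 11G against 2G and 1 of 37 in 11G+FK against 11G, where DESeq2 called 224 (168 lower, 56 higher). In fits without 1 library there were 4 to 162 calls, 42 to 1405 and 0 to 11 in these 3 comparisons; the cause was not tested. All 37 calls of 11G+FK against 11G kept their direction in the fits without 1 library, and 0 passed in each of them. The 101 named changes in 11G+FK against 2G include genes that had no call to lose, such as Lbh, G6pc2 and Ins2. Without the block 68 lost their call, and of the named genes with a call only Npas4, AI480526 and Gal3st1 kept it. With at least 10 CPM, where 82 named genes could be tested, 15 lost their call. With all 12 libraries 11 lost it and with RLE size factors 1, while 6 gained one with no filter, 5 with DESeq2 and 5 in the fit of 4 libraries. Of 12 named changes in 11G+FK against 11G, for which the block, DESeq2 and single libraries were tried, 11 lost their call without the block and 0 did with DESeq2. No called value changed sign under an alternative, and 32 values without a call in either fit did. With 2 mice a group and no FK506 at low glucose, single calls near the threshold rest on 1 or 2 libraries, and genes of few reads have wide errors.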
